A study of Danio rerio with 63 samples.

Results

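The hypothalamus was compared with the telencephalon (Tel) of the same wild-type zebrafish, over every gene with enough counts to be tested. By their labels, 24 of the 63 libraries of the series entered the comparison, all 12 wild-type hypothalamus libraries and all 12 wild-type Tel libraries. The fish were untreated adults of the AB strain, and no exact age was given. Each library held RNA of 3 fish of one sex, pooled per region, and each region was represented by 6 pools of females and 6 pools of males. Libraries of the same sex and code (A1 to C2) were taken as both regions of one pool, so that each pool was its own control. The wider study set these fish against a line with a mutation in cyp19a1b, made with TALEN nucleases, and also sampled the olfactory bulbs (OB). The mutants gave 9 pools, 4 of females and 5 of males, which are used only where they are named. The values are counts of unique molecular identifiers (UMIs), short tags that mark each captured RNA molecule, read at the 3′ end of transcripts.

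The hypothalamus is the part of the forebrain that governs feeding, reproduction, stress, body fluids and sleep, and many of its neurons make peptide hormones that act on the pituitary or on other brain regions. The telencephalon consists of the pallium, whose neurons mostly release glutamate and are marked by T-box and NeuroD factors, and of the subpallium, whose neurons mostly release GABA and arise under the control of Dlx factors. In adult teleosts radial glia still line the ventricles of both regions, and they are the cells that carry brain aromatase, the enzyme that turns androgens into estrogens.

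The hypothalamus libraries held 460620 to 934685 counts (median 550592), and the Tel libraries held 37825 to 693487 (median 353181). The male B2 Tel library was the shallowest, and in it a single count equals 20.3 CPM (counts per library scaled to a common total), so low genes could not be measured there. Of 11 genes that mark the hypothalamus, 7 were tested and 6 of them were called higher in hypothalamus, against 9.93% of all tested genes. Among the 6 were oxt, avp, agrp, pmch and otpb. The exception was nkx2.1, which was lower. All 7 testable of 9 telencephalic markers, such as eomesa, tbr1b and dlx5a, were lower in hypothalamus, against 5.68% of all tested genes. A gene could pass the count filter through either region alone, here and in the lists below. Agrp, pmch and avp had a median of 0 CPM in Tel and so passed it through their hypothalamus counts. The counts of called markers are therefore no independent check of the region labels. Genes that mark the midbrain and cerebellum were also more abundant in the hypothalamus libraries, and their part in the results below was not tested. Their summed level was 1701 to 2811 CPM in hypothalamus and 872 to 1584 CPM in Tel, and 9 of their 11 tested members were higher. Large parts of the sum came from zic1 (mean 597 CPM in hypothalamus against 131 CPM in Tel) and neurod1 (472 against 227 CPM). These 2 genes also stand in the subpallium and pallium lists. En1b (431 against 414 CPM) and pvalb7 (417 against 357 CPM) added much as well and were not called. Habenula markers summed to 272 to 426 CPM in hypothalamus and 81.2 to 363 CPM in Tel, with 6 of 8 tested members higher. Because whole pieces of tissue were sampled, fewer cells of a type and less RNA per cell cannot be told apart in any value given here.

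Of 8260 genes tested, 1289 differed between hypothalamus and Tel, which is 15.6%, at an adjusted p of 0.05 or less in edgeR's quasi-likelihood test and a change of at least 1.5-fold. Of these, 820 were higher in hypothalamus (9.93% of genes tested) and 469 were lower (5.68%), so that 63.6% of the called genes were higher. With both libraries of each pool thinned to the same total, 59.0% of 1155 called genes were higher. Among the 772 genes with at least 10 counts in every library, 108 were called and 46.3% of these were higher. With no fold threshold, 55.2% of 2055 called genes were higher among the same 8260 tested genes. The excess of higher genes thus differed between settings, and the reason was not tested. The median log2 change of all tested genes was 0.03, and 676 genes differed at least 2-fold and 212 at least 4-fold. For 163 of the higher genes and 64 of the lower ones, the 12 hypothalamus values did not overlap the 12 Tel values. The direction was the same in all 12 pools for 389 of the higher genes and 154 of the lower ones. Throughout, a log2 change is hypothalamus over Tel with the standard error of the fit, 3 levels given together are the lowest, the median and the highest of 12 libraries, and the adjusted p refers to the same edgeR test. A number in parentheses after a gene is its log2 change. Counts of called list members stand against the 15.6% of all tested genes called, 9.93% higher and 5.68% lower.

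**Figure D1:**
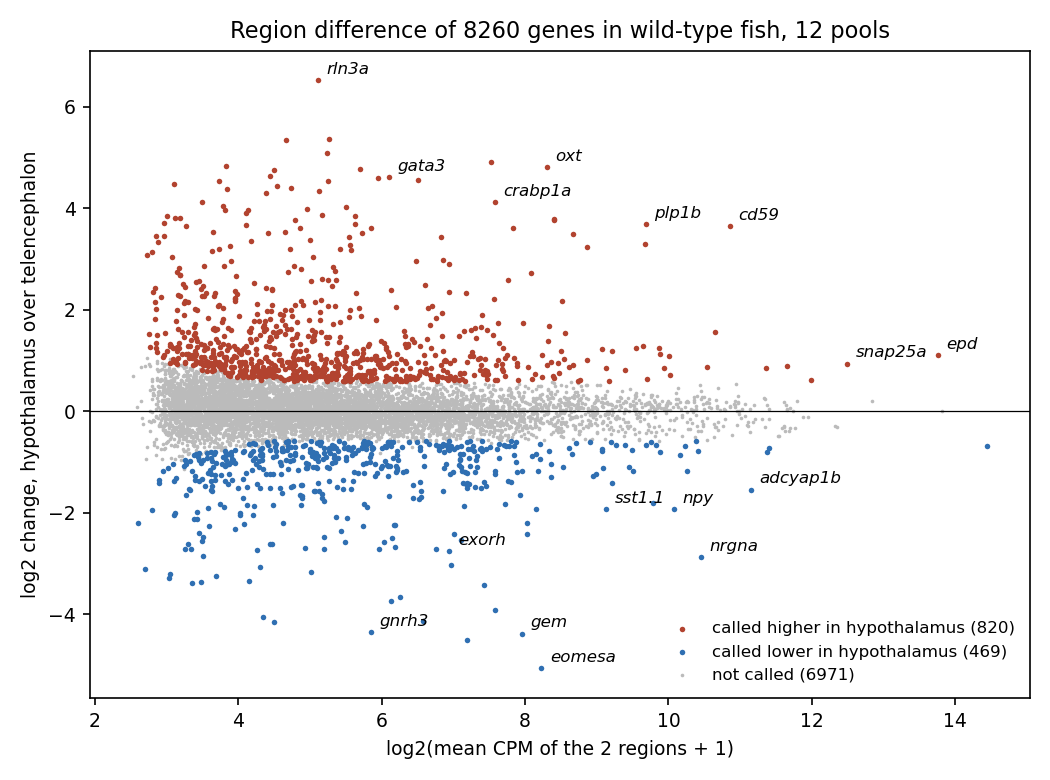
Log2 change, hypothalamus over Tel, of the 8260 tested genes against the log2 of their mean CPM plus 1. Red points are the 820 genes called higher in hypothalamus, blue points the 469 called lower and grey points those not called. The named genes include rln3a at the top and eomesa at the bottom.

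Among called genes of at least 50 CPM in one region and with one direction in all 12 pools (241 higher and 125 lower), the largest rise was that of rln3a, which encodes the neuropeptide relaxin 3. It had 25, 70.3 and 114 CPM in hypothalamus, against 0, 0 and 2.93 CPM in Tel. It gave 501 counts in hypothalamus and 2 in Tel, a ratio of 141 (95% counting interval 38.8 to 1170.0), and it was present in every hypothalamus library and in 2 Tel libraries. The transcription factor gene sox14 had 39.4, 75.4 and 109 CPM in hypothalamus, against 0, 0 and 5.16 CPM in Tel, a log2 change of 5.37 ± 0.30 (adjusted p = 8.08e-18). Next came olfm2b, a secreted olfactomedin (5.09), and aldoca, the glycolytic enzyme aldolase C, with 140.1, 288 and 728 CPM in hypothalamus, against 2.87, 11.6 and 40.6 CPM in Tel and a log2 change of 4.90 ± 0.19 (adjusted p = 5.66e-23). In each of these genes every hypothalamus library lay above every Tel library. The same held for the other large rises, oxt, pmchl, gata3, cyp26b1, si:dkey-238o13.4, calb2b, pth2 and crabp1a, whose log2 changes ran between 4.12 and 4.81.

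In the other direction, eomesa, a T-box factor of pallial glutamate neurons, changed most in the same selection, with 4.39, 15.4 and 31.1 CPM in hypothalamus, against 455, 565 and 781 CPM in Tel. Its log2 change was -5.07 ± 0.14 (adjusted p = 3.59e-27). The basic helix-loop-helix factor bhlhe23 had 5.14, 8.35 and 29.9 CPM in hypothalamus, against 183, 287 and 345 CPM in Tel, a change of -4.51 ± 0.16 (adjusted p = 4.68e-24). The small GTPase gem, known to inhibit voltage-gated calcium channels, had 8.29, 18 and 41.7 CPM in hypothalamus, against 158, 471 and 1071 CPM in Tel, a change of -4.38 ± 0.14 (adjusted p = 4.82e-26). All 3 genes were low in every hypothalamus library and high in every Tel library. The ephrin efna1b, a contact signal in axon guidance, stood at 23.2 CPM in hypothalamus against 358 CPM in Tel on average (-3.92 ± 0.12, adjusted p = 4.82e-26). The secreted C1q-like protein gene c1ql3b, which acts at synapses, stood at 9.35 CPM in hypothalamus against 129 CPM in Tel (-3.75 ± 0.16, adjusted p = 1.45e-21). Further genes of this rank were tbr1b, bhlhe22, nrgna, fezf2, rai14 and neurod6a, between -3.66 and -2.54.

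**Figure D2:**
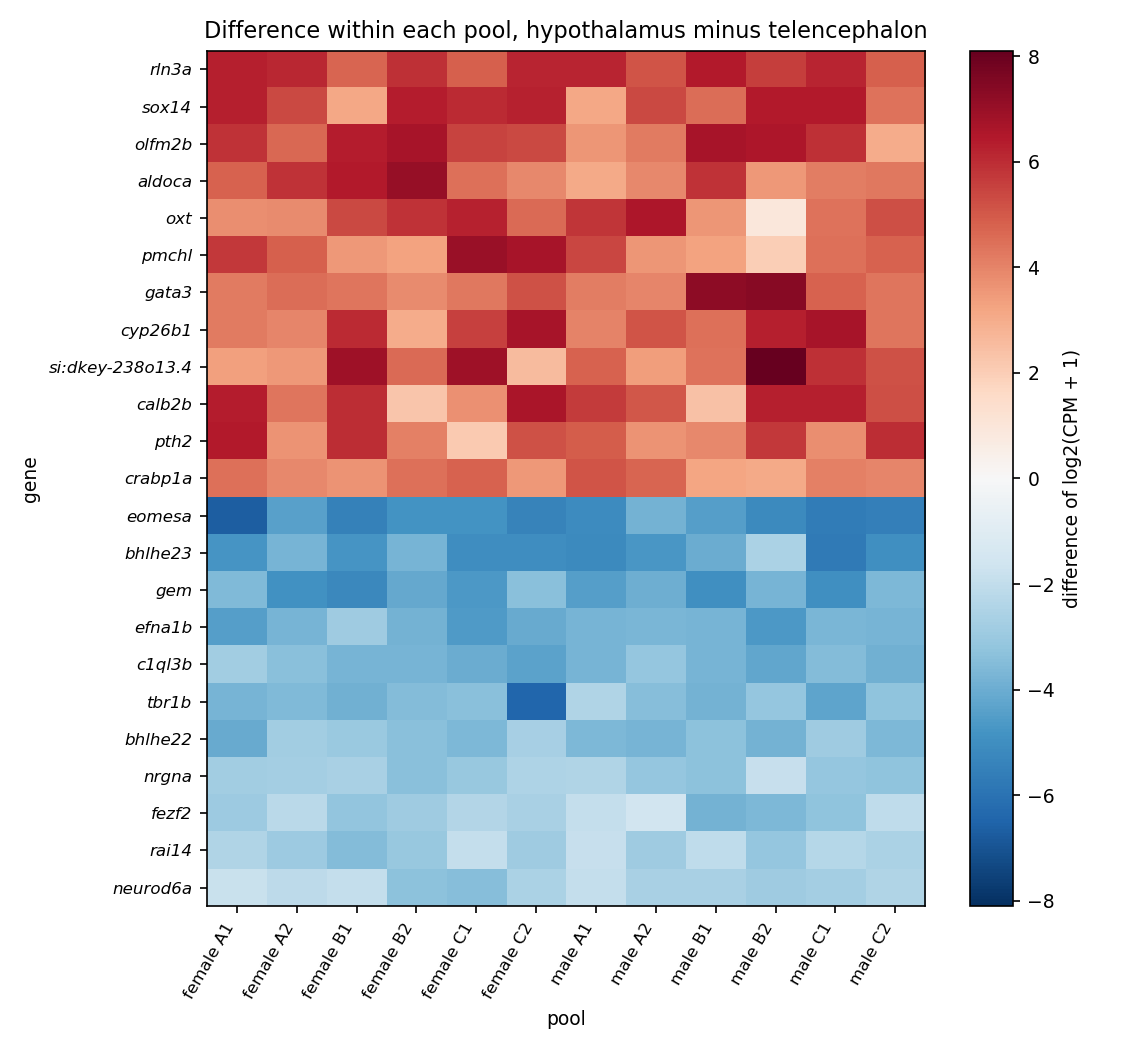
Difference of log2(CPM + 1), hypothalamus minus Tel, within each of the 12 pools for 12 of the largest rises and 11 of the largest falls among called genes with at least 50 CPM. The colour scale is in log2 units. Differences ran between 0.939 and 8.05 for the higher genes and between -6.66 and -1.53 for the lower ones.

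The most abundant called genes with one direction in all pools are given next. The highest level in hypothalamus was that of epd, the secreted glycoprotein ependymin, with 18821 ± 10391 CPM in hypothalamus against 8996 ± 6052 CPM in Tel (SD, n = 12 pools) and a log2 change of 1.1 ± 0.14 (adjusted p = 3.51e-08). The synaptic vesicle fusion gene snap25a followed with 7558 ± 1424 CPM in hypothalamus against 3964 ± 832 CPM in Tel (0.94 ± 0.08, adjusted p = 4.34e-12). The myelin-associated cd59 (3.65) and the hemoglobin hbba1 (0.88) also belonged to this group, beside si:ch211-5k11.8 (0.85) and itm2ba (0.62). The change of itm2ba fell under 1.5-fold without the female B1 pool (log2 change 0.55). The abundant lower genes were adcyap1b (-1.55), nrgna (-2.88), npy (-1.93), the cold-inducible RNA-binding protein gene cirbpa (-0.80), the calmodulin gene calm2b (-0.73) and the topoisomerase gene top1l (-0.80).

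Transcription factors that mark the pallium were mostly lower in hypothalamus. Of the 25 listed genes with a row of counts, 14 were tested, 8 were lower, 4 were higher and 2 were not called, with a median log2 change of -1.31. Tbr1b, a T-box factor downstream of eomesa, had 0, 10.6 and 20.8 CPM in hypothalamus, against 85.3, 143 and 181 CPM in Tel (-3.66 ± 0.18, adjusted p = 7.78e-20). The gene did not overlap between the regions. The homeobox gene emx3 (-4.07), the repressor bhlhe22 (-3.43), the NeuroD factors neurod6a (-2.54) and neurod6b (-1.39), and the orphan receptor nr2f1a (-1.23) were lower as well. Higher members were lhx9 (2.03), emx2 (1.62) and neurod1 (0.95). Thus emx3 and emx2 moved in opposite directions. The neurogenic factor neurod2 had a log2 change of -0.20 and lhx2b had 0.37, neither of them called. All 12 called members were also called within each sex, in one fit of both sexes. Among all 8260 tested genes 674 were called in both sexes.

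Of the 22 tested factors listed for the subpallium, 11 were lower and 7 higher, with a median of -0.48. The called share was 81.8%, against 15.6% of all genes tested. The Dlx homeobox genes, which direct the formation of GABA neurons, were lower in all 5 tested cases. Dlx5a had 11.3, 23.9 and 42.8 CPM in hypothalamus, against 40.6, 85.1 and 148 CPM in Tel (-1.90 ± 0.18, adjusted p = 4.54e-11), and dlx2a had 8.79, 16.3 and 22.6 CPM in hypothalamus, against 25.6, 50.7 and 103 CPM in Tel (-1.77 ± 0.20, adjusted p = 1.70e-09). In the OB dlx5a averaged 103 CPM, beside a Tel mean of 85.5 CPM, and this difference was not tested. The other lower members were the zinc-finger factors sp9 (-2.27) and sp8a (-1.90), the LIM factors lhx6 (-2.21) and lhx8a (-2.01), which mark cells of the ventral subpallium, dlx6a (-1.58), dlx1a (-1.49), dlx2b (-1.38) and gsx2 (-1.41), and the proneural gene ascl1a (-0.69). The higher members were pax6b (3.52), zic2a (2.58), gsx1 (2.24), meis2b (2.2), zic1 (2.16), foxp2 (1.34) and pax6a (0.64). Gsx1 was thus higher and its close relative gsx2 lower. The call was lost for pax6a without female A2 or C2 or male C2 (log2 change 0.55 to 0.56, adjusted p = 0.0570 to 0.0789). The summed level of the whole list was higher in hypothalamus in 12 of 12 pools, at 1111 to 2074 CPM in hypothalamus and 676 to 1141 CPM in Tel, with zic1 alone averaging 597 CPM in hypothalamus against 131 CPM in Tel.

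Factors listed for the hypothalamus were mostly higher there. Of 32 tested, 21 were higher, 5 were lower and 6 were not called, with a median log2 change of 1.88. Otpb, required in zebrafish for several neuroendocrine cell types, had 12, 23.9 and 39.4 CPM in hypothalamus, against 0, 1.29 and 10.3 CPM in Tel (2.96 ± 0.33, adjusted p = 2.60e-09). The NK2 homeobox gene nkx2.4a gave 178 counts in hypothalamus and 3 in Tel, a ratio of 33.4 (95% counting interval 11.2 to 164). The Iroquois genes irx3a and irx5a rose by 4.76 ± 0.38 (adjusted p = 2.45e-13) and 4.3 ± 0.36 (adjusted p = 1.39e-12), with means of 42 CPM in hypothalamus against 1.3 CPM in Tel for irx3a. Barhl1a, foxb1a and barhl2 had log2 changes of 3.28, 3.26 and 2.98. Tal1, a factor of GABA neurons in midbrain and diencephalon, had 70.0, 91.6 and 132 CPM in hypothalamus, against 0, 5.51 and 32.1 CPM in Tel (3.50 ± 0.23, adjusted p = 6.39e-16). Further higher members were zic5 (2.91), six6b (2.82), gata2a (2.56), lhx1a (2.48), six6a (2.27), lhx5 (1.98), nkx2.2a (1.78), pou3f1 (1.77), pou3f2b (1.22), hmx3a (1.13) and vax1 (1.04). Their levels did not all separate the regions, since low genes such as hmx3a (12.4 CPM in hypothalamus against 4.99 CPM in Tel) overlapped. The 5 lower members were fezf2, nkx2.1, six3b, six3a and prdm12b. Fezf2, a forebrain zinc-finger factor, had 10.3, 14.0 and 38.9 CPM in hypothalamus, against 50.7, 116 and 279 CPM in Tel (-2.68 ± 0.17, adjusted p = 3.89e-16). Nkx2.1, known for both the hypothalamus and the ventral subpallium, had 0, 3.39 and 11.7 CPM in hypothalamus, against 10.3, 20.2 and 49.7 CPM in Tel (-2.33 ± 0.33, adjusted p = 5.01e-07). Six3b had a log2 change of -1.83 and six3a of -1.11. Calls were lost for hmx3a without female A2, B1, B2 or C1 or male A2 (log2 change 0.92 to 1.03, adjusted p = 0.0589 to 0.110), vax1 without male A2 or C1 (log2 change 0.87 to 0.89, adjusted p = 0.0652 to 0.0658) and prdm12b without female B1 (log2 change -0.71, adjusted p = 0.0557).

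**Figure D3:**
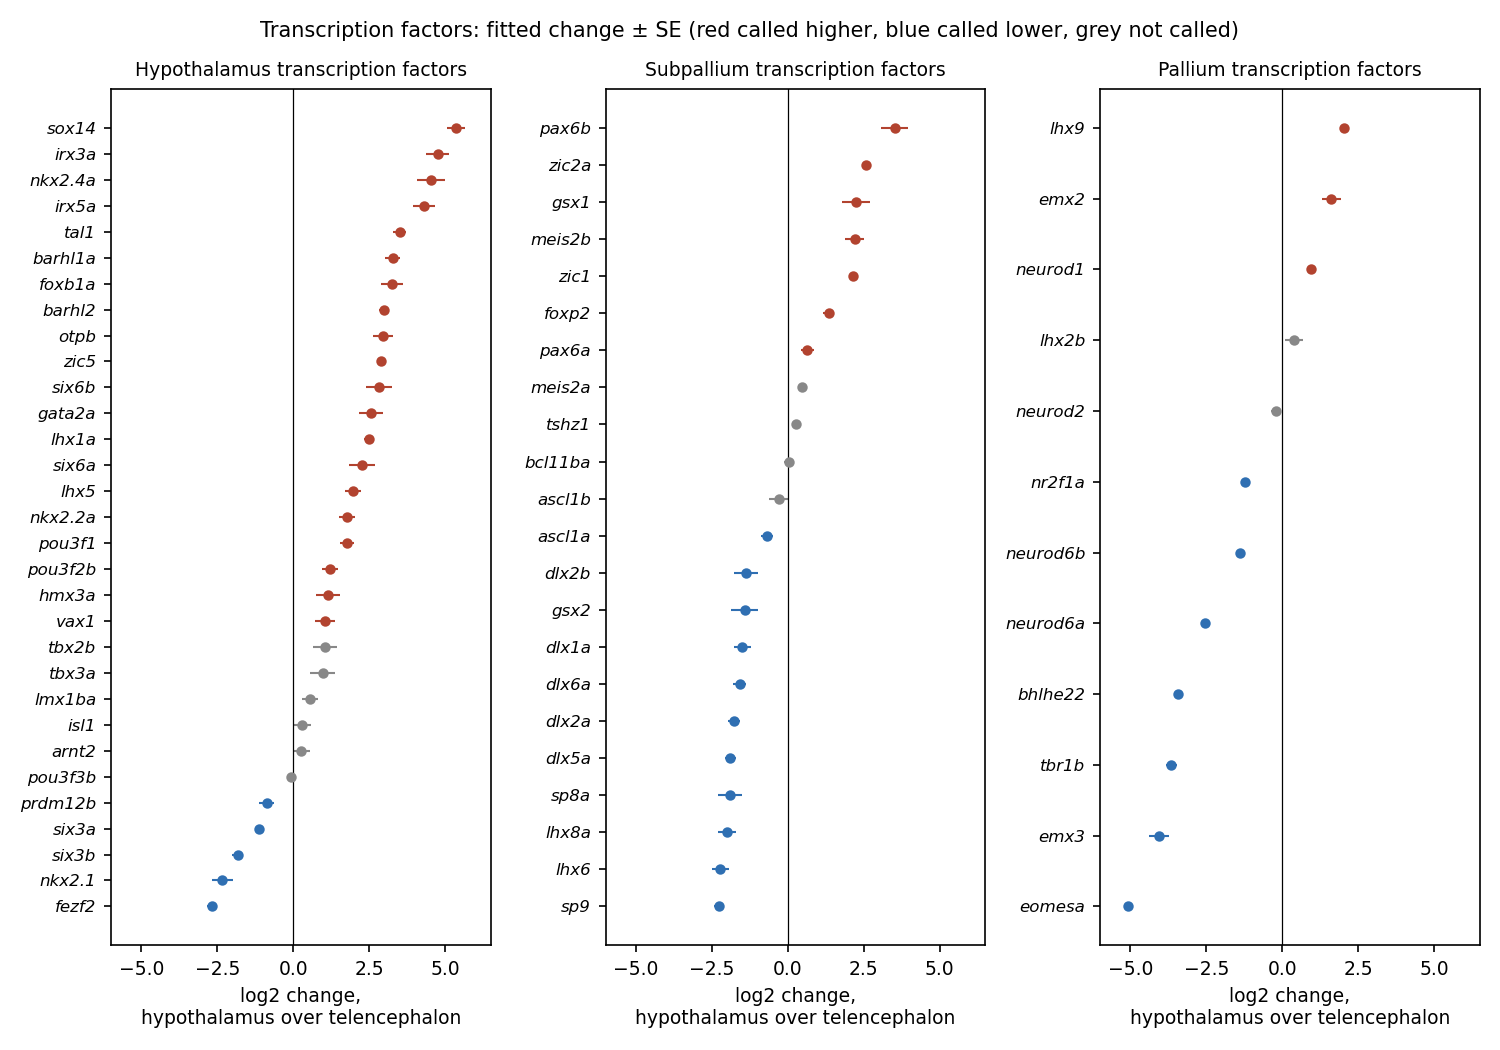
Log2 change, hypothalamus over Tel, with its standard error for tested members of 3 lists of transcription factors, without a few that are not shown. Red marks members called higher in hypothalamus, blue those called lower and grey those not called. Most members of the hypothalamus list lie right of 0, and most of the pallium list lie left of it.

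Several of the largest rises among transcription factors were of genes known from midbrain, thalamus or cerebellum. Gata3, a GATA factor of midbrain and brainstem neurons, had 89.2, 131 and 162 CPM in hypothalamus, against 0, 5.15 and 8.62 CPM in Tel (4.62 ± 0.20, adjusted p = 1.21e-21). The engrailed genes en2b (47.4 CPM in hypothalamus against 3.81 CPM in Tel) and en2a (30.7 CPM in hypothalamus against 1.85 CPM in Tel) changed by 4.39 and 3.67. Pax2a, which acts with engrailed at the midbrain-hindbrain boundary, had 35.9, 42.5 and 76.1 CPM in hypothalamus, against 0, 0.720 and 15.4 CPM in Tel (3.54 ± 0.32, adjusted p = 1.12e-11). None of these genes overlapped between the regions. Pax7a (2.35), tfap2a (2.33), zic1, ca8 (1.02) and neurod1 completed the 9 higher members of the list of tectum and cerebellum, while en1b (0.15) and pvalb7 (0.20) were not called. In the whole list of hindbrain markers, 1 of 4 tested was higher (mafba, 2.18) and 1 was lower (egr2b, -1.88), with sums of 62.5 to 159.5 CPM in hypothalamus and 36.1 to 133 CPM in Tel.

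Of 30 tested peptide genes 18 were higher, 6 were lower and 6 were not called, against 15.6% called among all genes. Their summed level was higher in hypothalamus in 4 of 12 pools, at 2494 to 4931 CPM in hypothalamus and 2254 to 5984 CPM in Tel. Oxt, which encodes the teleost oxytocin, had 118, 694 and 902 CPM in hypothalamus, against 2.93, 18.2 and 64.1 CPM in Tel (4.81 ± 0.19, adjusted p = 6.41e-23). Avp, the gene of vasotocin, had 15.3, 40.1 and 68.1 CPM in hypothalamus, against 0, 0 and 10.3 CPM in Tel (4.44 ± 0.35, adjusted p = 2.47e-13). Both genes were higher in hypothalamus in 12 of 12 pools without overlap. The smallest oxt gap was in the male B2 pool. The melanin-concentrating hormone genes pmch and pmchl had log2 changes of 5.33 ± 0.40 (adjusted p = 4.19e-14) and 4.78 ± 0.25 (adjusted p = 6.74e-19). Agrp, the appetite-raising antagonist of melanocortin receptors, gave 109 counts in hypothalamus and 2 in Tel, a ratio of 30.7 (95% counting interval 8.29 to 257). Its counterpart pomca, the precursor of melanocortins, had 3.59, 17.6 and 53.0 CPM in hypothalamus, against 0, 0 and 3.75 CPM in Tel (4.12 ± 0.44, adjusted p = 7.77e-10). Pomca is also made in the pituitary. Its 12 listed markers, pomca itself among them, summed to 21.9 to 83.3 CPM in hypothalamus and 10.3 to 33.5 CPM in Tel. Of them, prl had 30 counts in hypothalamus against 27 in Tel and gh1 had 7 counts in hypothalamus against 7 in Tel. The highest sum was in the male A1 hypothalamus library, where pomca alone gave 53.0 CPM, so these sums are no separate measure of pituitary tissue.

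Peptides that act on reproduction behaved in opposite ways. Gnrh2, the midbrain form of gonadotropin-releasing hormone, gave 192 counts in hypothalamus and 3 in Tel, a ratio of 36.0 (95% counting interval 12 to 176). Gnrh3, the form that in zebrafish controls the pituitary and lies in the terminal nerve and preoptic area, had 1.46, 4.90 and 9.61 CPM in hypothalamus, against 0, 68.1 and 373 CPM in Tel, a log2 change of -4.35 ± 0.26 (adjusted p = 3.32e-17). It was higher in Tel in 11 of 12 pools, and the exception was the shallow male B2 pool, with no count in Tel. In the OB gnrh3 averaged 4.68 CPM. Npvf, the gonadotropin-inhibitory peptide, had 5.84, 18.7 and 71.9 CPM in hypothalamus, against 0, 0 and 6.95 CPM in Tel (4.04 ± 0.44, adjusted p = 1.05e-09). Kiss1, which in zebrafish is expressed in the habenula, gave 100 counts in hypothalamus and 3 in Tel, a ratio of 18.8 (95% counting interval 6.24 to 92.6). Kiss2, the hypothalamic kisspeptin, was too sparse for the fit with 75 counts in hypothalamus and 3 in Tel, a ratio of 14.1 (95% counting interval 4.64 to 69.8), and was higher in hypothalamus in 12 of 12 pools (exact paired permutation test, two-sided p = 0.000488, the smallest that 12 pools allow). The tachykinin tac3a was higher (1.43 ± 0.25, adjusted p = 2.15e-05) and its relative tac3b lower (0.959 CPM in hypothalamus against 13.6 CPM in Tel, -3.21 ± 0.50, adjusted p = 2.81e-06).

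Further higher peptides were pth2, a parathyroid hormone relative that in zebrafish follows the presence of other fish, with 28.5, 63.8 and 104 CPM in hypothalamus, against 0, 2.72 and 7.03 CPM in Tel (4.34 ± 0.27, adjusted p = 2.22e-16), and ucn3l, a urocortin of the stress system, with 28.3, 40.1 and 90.6 CPM in hypothalamus, against 0, 5.39 and 10.5 CPM in Tel (3.19 ± 0.27, adjusted p = 1.97e-12). Vip (2.60), nmba (3.45), nmu (2.30) and the thyrotropin-releasing hormone gene trh (0.76) were also higher. Galn, the gene of galanin, had 54.1, 116 and 524 CPM in hypothalamus, against 0, 34.2 and 203 CPM in Tel (1.47 ± 0.30, adjusted p = 0.000150) and was higher in 9 of 12 pools, with values that overlapped widely. The lower peptide genes were npy, ghrh, cart4, scg2b, gnrh3 and tac3b. Npy, an appetite-raising peptide of many forebrain neurons, had 334, 439 and 617 CPM in hypothalamus, against 995, 1619 and 2891 CPM in Tel (-1.93 ± 0.11, adjusted p = 3.23e-17), without overlap. Growth hormone-releasing hormone, ghrh, stood at 3.23 CPM in hypothalamus against 15.5 CPM in Tel (-2.13 ± 0.36, adjusted p = 1.04e-05), and cart4 at 20.5 CPM in hypothalamus against 54.6 CPM in Tel (-1.39 ± 0.23, adjusted p = 8.48e-06). Scg2b, a secretogranin, had -0.61, and its change fell under 1.5-fold without the male B1 or male C1 pool (log2 change -0.55 and -0.58). Not called were cart2 (0.56), nucb2b (0.15), crhb (-0.02), tac1 (-0.23), nucb2a (-0.25) and uts1 (-0.50).

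**Figure D4:**
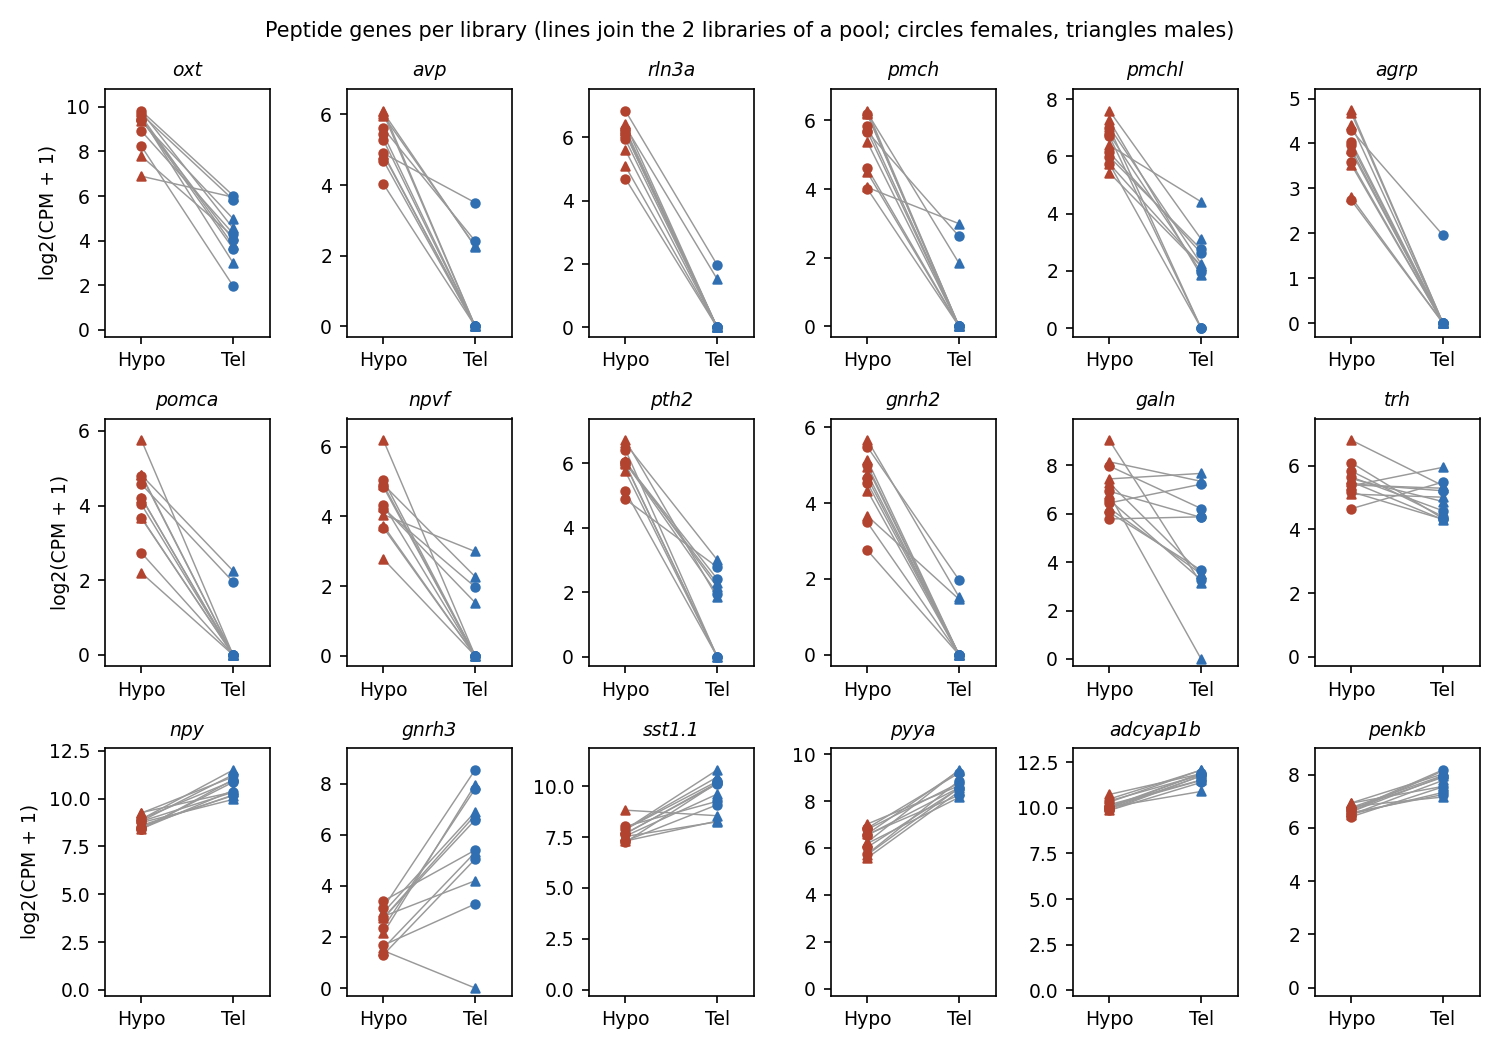
Level of 18 peptide genes as log2(CPM + 1) in hypothalamus (red, left) and Tel (blue, right). Circles are female pools, triangles are male pools and lines join the libraries of one pool. Oxt, avp and rln3a do not overlap between the regions, galn and trh do, and npy, pyya, adcyap1b and penkb are lower in every hypothalamus library.

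All 12 tested genes of the somatostatin, opioid, cholecystokinin and PACAP group were called, 7 higher and 5 lower. Adcyap1b, which encodes the peptide PACAP, was the most abundant, with 926, 1079 and 1704 CPM in hypothalamus, against 1909, 3515 and 4313 CPM in Tel (-1.55 ± 0.09, adjusted p = 3.60e-17). Its duplicate adcyap1a went the other way, with 18.8 CPM in hypothalamus against 4.77 CPM in Tel (2.33 ± 0.38, adjusted p = 6.12e-06). The opioid precursors split likewise, with penkb lower (102 CPM in hypothalamus against 218 CPM in Tel, -1.11 ± 0.10, adjusted p = 2.45e-11) and penka higher (219 CPM in hypothalamus against 105 CPM in Tel, 1.04 ± 0.13, adjusted p = 6.50e-08). Pyya and pyyb, of the peptide YY family, had log2 changes of -2.42 ± 0.12 (adjusted p = 2.68e-19) and -4.15 ± 0.32 (adjusted p = 1.19e-13), and somatostatin sst1.1 had 151, 203 and 454 CPM in hypothalamus, against 305, 947 and 1793 CPM in Tel (-1.93 ± 0.18, adjusted p = 1.25e-11). The male A1 pool was the one in which sst1.1 was not lower. On the higher side stood pnocb (2.81), the precursor of nociceptin, npb (2.38), sst6 (1.91), pdyn (1.83), which encodes dynorphins, and cort (1.01), a somatostatin relative. All 12 genes were called in females and in males, in one fit of both sexes.

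Genes of GABA synthesis and uptake were higher in hypothalamus. Gad2, one of the enzymes that make GABA, had 454, 857 and 1222 CPM in hypothalamus, against 203, 374 and 547 CPM in Tel (1.18 ± 0.09, adjusted p = 2.90e-14), and gad1b had 458, 518 and 639.7 CPM in hypothalamus, against 287, 335 and 399.6 CPM in Tel (0.61 ± 0.08, adjusted p = 1.32e-07). The GABA transporters slc6a1b and slc6a1a rose by 1.44 ± 0.14 (adjusted p = 1.11e-10) and 0.91 ± 0.11 (adjusted p = 1.15e-08). The acetylcholine vesicle transporter slc18a3a stood at 14.0 CPM in hypothalamus against 1.61 CPM in Tel (2.75 ± 0.41, adjusted p = 1.27e-06). These were 5 of 7 tested transmitter genes, and none was lower. The vesicular GABA transporter slc32a1 had 0.58 ± 0.09 (adjusted p = 1.64e-06), just under the 1.5-fold limit, and the glutamate transporter slc17a6a had -0.25 ± 0.22 (adjusted p = 0.453). The GABA genes and the Dlx factors thus changed in opposite directions.

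Receptor genes of several transmitters were measured as well. Of 8 tested GABA and glycine receptor subunits 5 were higher, with a median of 1.00, with glra1 (2.26), gabra4 (167 CPM in hypothalamus against 38.9 CPM in Tel, 2.06 ± 0.15, adjusted p = 2.20e-14), glrba (1.38) and gabrb2a (1.05) among them. Of 18 glutamate receptor genes 9 were higher and gria1a was lower (-0.70 ± 0.16, adjusted p = 0.000860), so that 55.6% were called. The NMDA receptor subunit grin2ca had 12.5, 48.4 and 88.7 CPM in hypothalamus, against 0, 5.07 and 10.4 CPM in Tel (2.86 ± 0.28, adjusted p = 5.51e-11), while grin1b, of the subunit type that every NMDA receptor contains, changed by 0.73 ± 0.10 (adjusted p = 2.07e-07). Further AMPA, NMDA and metabotropic receptor genes that were higher were grm1b (2.42), grm8a (1.79), gria4a (1.49), grm4 (1.45), gria3a (1.35) and grin1a (0.90). Among 14 tested receptors for peptides, monoamines and hormones, htr1aa (serotonin, 2.09 ± 0.24, adjusted p = 5.58e-09), drd2a (dopamine, 1.98 ± 0.41, adjusted p = 0.000230), htr2cl1 (1.33) and oprd1a (0.91) were higher. The histamine receptor hrh3, by contrast, had 4.38, 7.2 and 15 CPM in hypothalamus, against 0, 47.5 and 88.4 CPM in Tel (-2.69 ± 0.22, adjusted p = 3.40e-13). Adcyap1r1a, a PACAP receptor, was called lower (-0.78), but the call was lost for adcyap1r1a without female A2 or C2 or male B1 or C2 (log2 change -0.76 to -0.67, adjusted p = 0.0510 to 0.102). A further 56 genes of this list lay under the count filter.

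Genes of steroid, monoamine and thyroid hormone metabolism and signalling were called in shares of 5.26%, 10.0% and 20.0%, against 15.6% of all genes tested. Brain aromatase, cyp19a1b, had 474, 867 and 1544 CPM in hypothalamus, against 1004, 1599.7 and 1908 CPM in Tel, a log2 change of -0.69 ± 0.11 (adjusted p = 2.45e-06), and was lower in hypothalamus in 11 of 12 pools, with male A1 as the exception. It was the only one of 19 tested genes of the steroid list that was called, whereas 4 were called, all lower, after thinning. The androgen receptor ar had 0.59 ± 0.31 (adjusted p = 0.176), and the estrogen receptors esr1, esr2a and esr2b had -0.11, 0.45 and -0.44. The gonadal aromatase cyp19a1a was under the filter, with 8 counts in hypothalamus against 5 in Tel (exact paired permutation test, two-sided p = 0.750). Th2, which encodes the tyrosine hydroxylase of hypothalamic dopamine cells, had 3.59, 10.7 and 18.3 CPM in hypothalamus, against 0, 0 and 6.95 CPM in Tel (3.13 ± 0.56, adjusted p = 2.40e-05) and was 1 of 10 tested monoamine genes called. After thinning only 6 genes of the list were tested, and none of them was called. Th, the other tyrosine hydroxylase, had 38 counts in hypothalamus against 13 in Tel, with p = 0.0137 in the same exact permutation test and p = 0.561 after thinning to equal totals. The catabolic genes mao and comtb had 0.13 ± 0.14 (adjusted p = 0.561) and -0.05 ± 0.32 (adjusted p = 0.938), and comta had 4 counts in hypothalamus against 3 in Tel (exact permutation p = 0.750). In the thyroid hormone list 2 of 10 genes, the receptors thrb (1.04 ± 0.27, adjusted p = 0.00359) and thraa, were higher. Single omissions ended the call, for thraa without female B2 or C2 or male A1, A2, B2 or C2 (log2 change 0.75 to 0.96, adjusted p = 0.0571 to 0.107).

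Every one of the 12 tested oligodendrocyte and myelin genes was higher in hypothalamus, with a median log2 change of 2.02. Plp1b, a proteolipid of myelin, had 1092, 1495 and 1940.2 CPM in hypothalamus, against 70.5, 119 and 169 CPM in Tel (3.68 ± 0.12, adjusted p = 7.25e-26). Cd59 had 2245, 3138 and 4784 CPM in hypothalamus, against 208, 261 and 383 CPM in Tel (3.65 ± 0.10, adjusted p = 3.59e-27). The hypothalamus values of both genes were several times the highest Tel value. Cldnk, the claudin of fish myelin (3.43), mbpb, a myelin basic protein (1.64), cldn19 (2.45), and ugt8, which makes myelin lipids (1.57), rose too, as did the lineage factors nkx6.2 (2.27), nkx2.2a (1.78), olig2 (1.18) and sox10 (1.03). Plp1a was the weakest of the list (0.80). It was higher in 11 of 12 pools, but its call was lost without male A2 (log2 change 0.69, adjusted p = 0.0541). The summed level was 5021 to 8966 CPM in hypothalamus and 553 to 912 CPM in Tel.

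Neurofilaments, which give large axons their girth, were also higher, in families assembled after the values had been seen. Of 6 tested neurofilament genes 5 were higher, with 351, 419.7 and 516 CPM in hypothalamus, against 0, 31.9 and 61.9 CPM in Tel for nefma (3.60 ± 0.13, adjusted p = 9.07e-24) and smaller levels for nefmb (4.03), inab (3.03), neflb (2.59) and prph (0.96). The related inaa was not called (-0.31). Of 7 tested voltage-gated sodium channel genes, scn4ba (66.3 CPM in hypothalamus against 3.72 CPM in Tel, 3.86 ± 0.26, adjusted p = 1.20e-15), scn1bb (1.53), scn8ab (1.21) and scn8aa (1.13) were higher. Of 15 tested subunits of the sodium-potassium pump and its regulators 6 were higher, led by fxyd7 (2.07), atp1a3b (1132 CPM in hypothalamus against 469 CPM in Tel, 1.28) and fxyd1 (1.24), and fxyd6l was lower (-1.07). The neuronal pump atp1a3a had 1414 CPM in hypothalamus against 1554 CPM in Tel and was not called. In the potassium channel list 4 of 11 were higher, kcnip3b (2.42), kcnk10a (0.84), kcnd3 (0.81) and kcnc1a (0.81), and kcng1 was lower (-1.55). The called share of this list was 45.5%, against 15.6% of all genes tested. The call was lost for kcnc1a without female A1, B2 or C2 or male A2, B1, B2 or C1 (log2 change 0.58 to 0.80, adjusted p = 0.0593 to 0.193).

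Radial glia are the neural progenitors of the adult fish brain. Of 31 tested radial glia genes 2 were higher and 4 lower, which is 19.4% called against 15.6% of all genes tested, and the list had a median of -0.02. The progenitor factor sox2 had 25.5 CPM in hypothalamus against 29.7 CPM in Tel (-0.0046 ± 0.22, adjusted p = 0.995), the glial filament gfap had 0.33 ± 0.16 (adjusted p = 0.149) and the fatty acid binding protein fabp7a had -0.12 ± 0.09 (adjusted p = 0.382). Called were s100b (1.27) and the water channel aqp1a.1 (1.47), which were higher, and fabp7b, the filament vim (-0.70), cyp19a1b and sox3 (-0.60), which were lower. Fabp7b, a duplicate of fabp7a, had 2.93, 8.87 and 30.6 CPM in hypothalamus, against 0, 48.5 and 196 CPM in Tel (-2.57 ± 0.32, adjusted p = 2.67e-08). The 1.5-fold limit was missed by sox3 without female B1 or C2 or male C1 or C2 (log2 change -0.56 to -0.52, adjusted p = 0.0171 to 0.0259). Of 23 tested proliferation genes 2 were higher and 1 lower, which is 13.0% called against the same 15.6%. Pcna, a clamp of DNA replication, had 81.7, 94.7 and 140.3 CPM in hypothalamus, against 51.3, 97.1 and 126 CPM in Tel (0.06 ± 0.12, adjusted p = 0.783), and mki67 had 0.39 ± 0.28 (adjusted p = 0.360). Hmgb2a was higher (221 CPM in hypothalamus against 108 CPM in Tel, 1.04 ± 0.12, adjusted p = 2.58e-09). Ccnd2a (0.91) and aurkb (-0.92) lost their calls without 1 pool, ccnd2a without female A1 or B2 or male B1 or C1 (log2 change 0.72 to 0.82, adjusted p = 0.0557 to 0.0711) and aurkb without male B1 (log2 change -0.76, adjusted p = 0.0651). Without the 5 pools of high exorh described below, 1 of the list was called.

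Among 24 tested genes of newborn and maturing neurons, 6 were higher and 4 lower, which is 41.7% called against 15.6% of all genes tested. The duplicates sox11a and sox11b, factors of young neurons, moved apart. Sox11a had 166, 223 and 307 CPM in hypothalamus, against 43.8, 69.6 and 155 CPM in Tel (1.59 ± 0.12, adjusted p = 5.43e-14), and sox11b had 155, 241 and 324 CPM in hypothalamus, against 268, 496 and 738 CPM in Tel (-1.09 ± 0.10, adjusted p = 4.07e-12). Gap43, a protein of growing axons, was lower with 316, 446 and 577 CPM in hypothalamus, against 649.9, 1011 and 1305 CPM in Tel (-1.18 ± 0.09, adjusted p = 4.06e-14). The RNA-binding genes elavl4 (1.08) and rbfox1 (0.94), sox4b (0.80), snap25a and insm1a (0.72) were higher, and syt1a (-0.67) and tubb5 (-0.61) were lower. Calls were lost for insm1a without female A2 or male B1 (log2 change 0.59 to 0.60, adjusted p = 0.0565 to 0.0685) and tubb5 without female A1 or male B1 or B2 (log2 change -0.57 to -0.53, adjusted p = 0.000117 to 0.000219), where tubb5 fell under the 1.5-fold limit.

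Neurons switch on immediate early genes within minutes of activity. Of 22 tested 10 were lower in hypothalamus, 3 were higher and 9 were not called, with a median log2 change of -0.56. The called share was 59.1%, against 15.6% of all genes tested. Egr2a, a zinc-finger factor, had 7.69, 16.7 and 29.2 CPM in hypothalamus, against 20.3, 115 and 167 CPM in Tel (-2.71 ± 0.17, adjusted p = 2.97e-16). Nr4a1 had 12.8 CPM in hypothalamus against 43.8 CPM in Tel (-1.85 ± 0.22, adjusted p = 7.73e-09), and the AP-1 subunit junba had 27.5, 41.6 and 87.1 CPM in hypothalamus, against 40.6, 163 and 222 CPM in Tel (-1.68 ± 0.13, adjusted p = 2.61e-13). The growth factor bdnf had 95.1 CPM in hypothalamus against 160.4 CPM in Tel (-0.75 ± 0.12, adjusted p = 3.28e-06). The other lower members were egr2b (-1.88), egr3 (-1.28), gadd45bb (-1.11), dusp5 (-1.09), junbb (-0.88) and btg2 (-0.86), while jun (0.84), npas4a (0.76) and ier2a (0.62) were higher. The 1.5-fold limit was missed by ier2a without female A2, B2 or C2 or male B1 or C1 (log2 change 0.54 to 0.58, adjusted p = 0.00491 to 0.00665). Fosab, the zebrafish c-fos, had -0.55 ± 0.13 (adjusted p = 0.00164) and was not called. The summed level of the list was lower in hypothalamus in 12 of 12 pools, and it also differed between the code letters. In letter A it was 1562 to 2312 CPM in hypothalamus and 2238 to 2968 CPM in Tel, in letter B 1269 to 1498 CPM in hypothalamus and 1387 to 1822 CPM in Tel, and in letter C 1617 to 1863 CPM in hypothalamus and 2653 to 3295 CPM in Tel. Letter B was thus the lowest in both regions, and what the letters stand for is not given by the labels. Their part in these values was not tested.

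Calcium-binding and plasticity proteins were measured with 33 genes, of which 14 were higher and 3 lower. Their summed level was higher in hypothalamus in 1 of 12 pools, at 7796 to 11344 CPM in hypothalamus and 8693 to 14718 CPM in Tel. The calretinin genes calb2b and calb2a were both higher, calb2b with 31.1, 69.3 and 125 CPM in hypothalamus, against 0, 0 and 10.4 CPM in Tel (4.54 ± 0.30, adjusted p = 1.69e-15) and calb2a with 179.8 CPM in hypothalamus against 48.5 CPM in Tel (1.93 ± 0.13, adjusted p = 1.15e-15). In the OB calb2a averaged 1796 CPM, above both regions. The parvalbumin pvalb6 had 321, 489 and 613 CPM in hypothalamus, against 20.3, 64.7 and 109 CPM in Tel (2.72 ± 0.11, adjusted p = 4.70e-22). Neurogranin, which binds calmodulin in dendrites, has 2 genes that moved in opposite directions. Nrgna had 243, 327 and 517 CPM in hypothalamus, against 1178, 2548 and 3060.4 CPM in Tel (-2.88 ± 0.11, adjusted p = 9.07e-24), and nrgnb had 835, 991 and 1399.9 CPM in hypothalamus, against 325, 444 and 519 CPM in Tel (1.24 ± 0.09, adjusted p = 1.29e-14). Neither overlapped between the regions. The other lower genes were ncalda (735 CPM in hypothalamus against 1711 CPM in Tel, -1.19 ± 0.12, adjusted p = 6.47e-11) and camk2a, a kinase of synaptic plasticity (-0.80 ± 0.16, adjusted p = 0.000136). Higher as well were ppp1r1b, the gene of DARPP-32 (2.56), cabp1a (1.88), hpca (1.74), ppp1r1c (1.69), cplx2 (1.42), vsnl1b (1.21), vsnl1a (1.00), pvalb4 (0.86), camk2g1 (0.86) and cplx2l (0.85). The call was lost for pvalb4 without female A1, B2, C1 or C2 or male B1, B2, C1 or C2 (log2 change 0.50 to 0.90, adjusted p = 0.0514 to 0.307).

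Signalling families were also picked after their values were known, so their counts are a description only. Retinoic acid is made from vitamin A by aldehyde dehydrogenases and removed by Cyp26 enzymes. Cyp26b1 had 65.3, 113 and 179.8 CPM in hypothalamus, against 0, 3.50 and 14.4 CPM in Tel (4.59 ± 0.22, adjusted p = 5.69e-20), and the binding protein crabp1a had 266, 338 and 459 CPM in hypothalamus, against 10.3, 26.0 and 40.6 CPM in Tel (4.12 ± 0.14, adjusted p = 6.28e-25). The synthetic enzymes aldh1a2 (2.08) and rdh10a (1.61) and the receptors raraa (1.81) and rarga (0.79) were higher too, as was crabp1b (2.08). Among the lower genes were rbp4l (-2.73), cyp26c1 (-0.95) and stra6 (-0.91), and the family had 7 higher and 4 lower of 15 tested. Rbp4l varied widely, with 1.31, 18.2 and 62.5 CPM in hypothalamus, against 0, 69.5 and 641 CPM in Tel. It was lower in hypothalamus in 9 pools and higher in 3. All 6 tested members of the Wnt target and TCF/LEF group were higher, with 50.4 CPM in hypothalamus against 2.96 CPM in Tel for tcf7l2 (3.76 ± 0.29, adjusted p = 1.02e-13), 118 CPM in hypothalamus against 38.0 CPM in Tel for lef1 (1.57 ± 0.14, adjusted p = 2.34e-12) and a change of 1.23 for the feedback inhibitor axin2. In the Zic family zic1, zic2a, zic4 (1.16) and zic5 were higher, while zic6 (0.19) was not called. The oxygen-binding neuroglobin gene ngb had 63.4, 76.1 and 103 CPM in hypothalamus, against 146, 239 and 293 CPM in Tel (-1.5 ± 0.11, adjusted p = 1.05e-14), and cytoglobin cygb2 was lower as well (-1.21).

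Genes of blood, photoreceptors and meninges were measured as signs of other tissue, and their part in the other results was not tested. All 7 tested red blood cell genes were higher in hypothalamus, against 9.93% of all genes tested. Hbba1, for example, had 2001, 3553 and 8356 CPM in hypothalamus, against 1174, 1969 and 3245 CPM in Tel (0.88 ± 0.11, adjusted p = 1.18e-08). The list summed to 3005 to 15229 CPM in hypothalamus and 2239 to 5918 CPM in Tel. Without the pool as a block 4 of the 7 were called. The call was lost for epb41b without female A2, B2 or C2 or male C2 (log2 change 0.56 to 0.74, adjusted p = 0.0515 to 0.124). Of 7 tested photoreceptor genes 5 were lower in hypothalamus, including exorh, the opsin of the pineal gland, at 1.95, 23.9 and 66.4 CPM in hypothalamus, against 0, 62.6 and 872 CPM in Tel. Exorh was at 100 CPM or more in the Tel libraries of 5 pools (female C1 and C2, male A1, A2 and C1), and without these pools none of the 7 tested photoreceptor genes was called. The pools were picked by exorh in Tel, itself a member of the list, so this loss was in large part built into the choice. In those 7 remaining pools 1110 genes were called in all. Single pools already ended calls, for arr3a without female C1 or C2 (log2 change -1.09 to -1.01, adjusted p = 0.0512 to 0.0561) and saga without female A1, C1 or C2 or male A2 (log2 change -1.02 to -0.57, adjusted p = 0.0543 to 0.355). Keratin krt5 reached 8072 CPM in the male A1 Tel library, against 7.65 to 81.2 CPM in the other 11 Tel libraries, and the meningeal and choroid plexus list summed to 951 to 1511 CPM in hypothalamus and 711 to 13240.0 CPM in Tel. Krt5 is a member of that list and gave 8072 CPM of its highest sum, so that sum is no separate measure of meninges. Of 14 tested members of that list 2 were higher, otx2b (2.83) and dcn (2.09), 2 were lower and 10 were not called. The called share was 28.6%, against 15.6% of all genes tested. The 2 lower members of that list were the collagen gene col1a1b (-1.19) and the keratin gene krt4 (-1.08). The antigen-presenting gene mhc2dab, which is not in that list, was called lower as well (-1.04). These calls were lost for col1a1b without male A1 (log2 change -0.64, adjusted p = 0.0545), krt4 without male A1 (log2 change -0.25, adjusted p = 0.443) and mhc2dab without male A1 (log2 change -0.53, adjusted p = 0.135). Leaving out both male A1 and the shallow male B2 gave 1315 called genes.

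The muscle genes actc1b (1.12), ckmb (1.5), mylpfa (1.5) and mylz3 (0.86) were called higher and tpma lower (-1.23), of 9 tested. That is 55.6% called, against 15.6% of all genes tested. The male C2 hypothalamus library had the highest sum of the list, 735.1 CPM. Calls were lost for ckmb without male C2 (log2 change 0.61, adjusted p = 0.362), mylpfa without male C2 (log2 change 0.57, adjusted p = 0.289) and mylz3 without female A1, A2, B1, C1 or C2 or male A2, B2 or C2 (log2 change 0.71 to 0.87, adjusted p = 0.0580 to 0.125). Of 17 tested microglial genes 2 were called, a share of 11.8% against 15.6% of all genes tested. Coro1a was called (0.59), and the call was lost for coro1a without female A1, B1, B2 or C1 or male A1 or C2 (log2 change 0.48 to 0.60, adjusted p = 0.0541 to 0.118). Of 13 tested vessel genes 2 were higher, 1 was lower and 10 were not called, so that 23.1% were called. Rgs5a, of pericytes, was higher (0.90 ± 0.14, adjusted p = 3.84e-06), and tagln, of smooth muscle, was lower (-1.16 ± 0.22, adjusted p = 5.71e-05). Acta2 (0.62) and rgs5b (0.15) were among those not called. Flt1 was called higher (1.06), but the call was lost without female A1 or C2 or male A1, A2, B1, B2, C1 or C2 (log2 change 0.92 to 1.03, adjusted p = 0.0522 to 0.0707). The 8 tested genes of motile cilia lay between -0.44 and 0.45 on the log2 scale, and edgeR called none of them. Of olfactory sensory neuron markers, 1 of 4 tested was higher (ompa, 0.73) and 1 lower (s100z, -0.86). Among habenula genes pou4f1 (20.6 CPM in hypothalamus against 2.09 CPM in Tel, 3.15 ± 0.38, adjusted p = 1.15e-08), nrp1a (1.66), gng8 (1.81), kiss1 and tac3a were higher, and aoc1 (0.78) lost its call for aoc1 without female A1, A2 or B2 or male A2 or C2 (log2 change 0.68 to 0.75, adjusted p = 0.0536 to 0.0910).

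**Figure D5:**
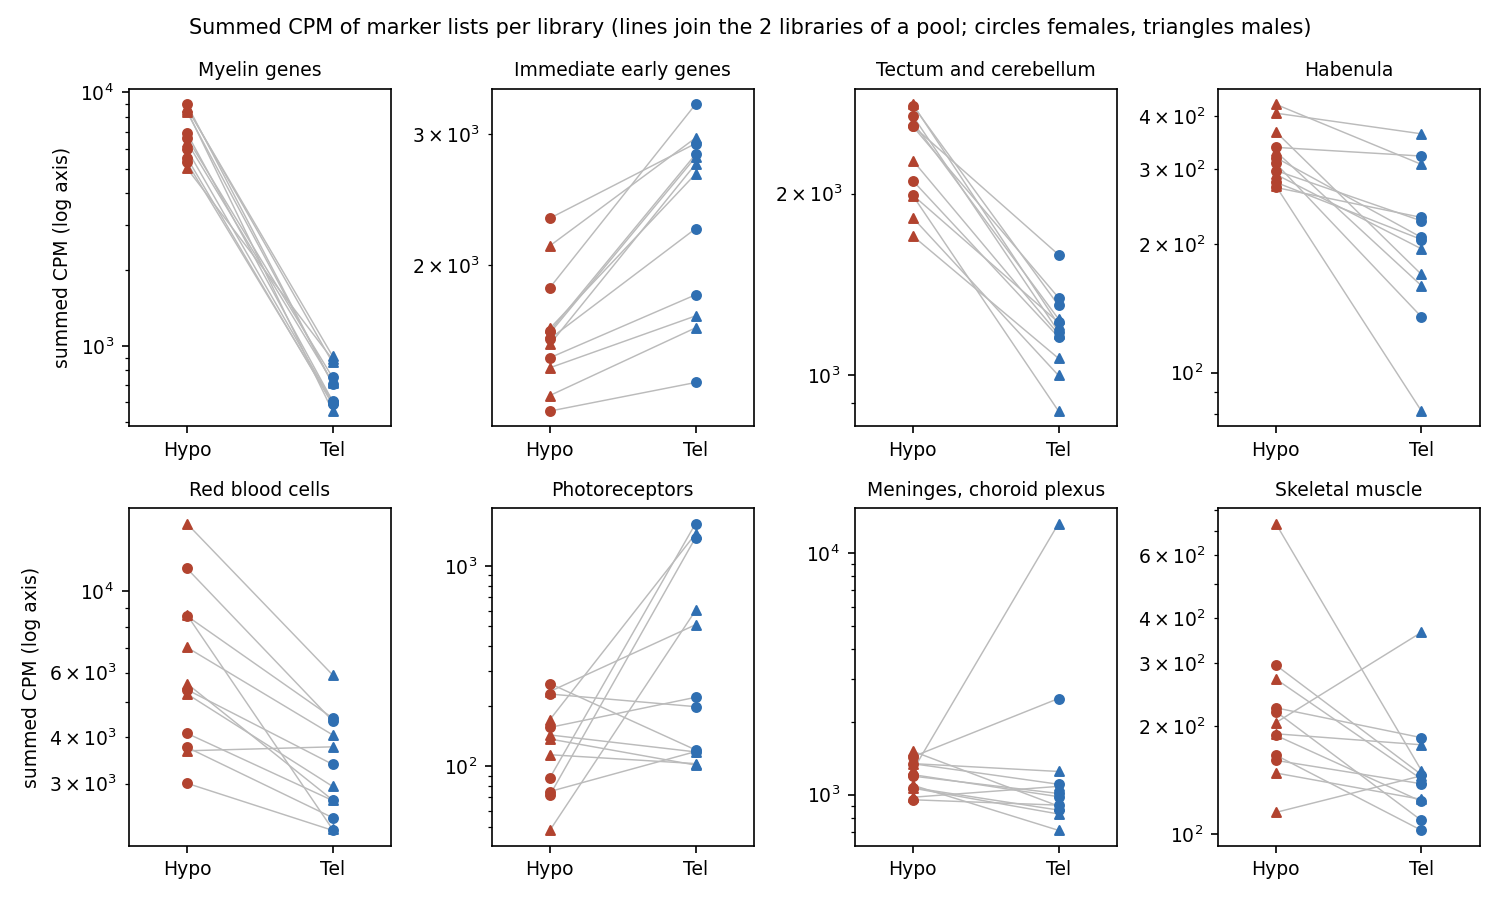
Summed CPM of 8 gene lists per library, on log axes, in hypothalamus (red, left) and Tel (blue, right). Circles are female pools, triangles male pools and lines join the libraries of one pool. Myelin genes separate the regions fully, red blood cell sums reach 15229 CPM in hypothalamus, and 5 Tel libraries have high photoreceptor sums. The male A1 Tel library has the highest sum of the meningeal list, of which the keratin krt5 gave 8072 CPM. The male C2 hypothalamus library has the highest muscle sum.

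Another 308 genes of the lists had too few counts for the fit, and 306 of them had at least 1 count. They were compared with a two-sided exact paired permutation test on log2(CPM + 1), without adjustment. Of these 67 had p of 0.05 or less, 64 of them higher in hypothalamus. Because the hypothalamus libraries were deeper, the test was repeated on thinned counts, which left 42, of which 34 were higher and 8 lower, and 36 genes passed both tests. Nkx2.4b gave 31 counts in hypothalamus and 1 in Tel, a ratio of 17.5 (95% counting interval 2.91 to 711), with p = 0.00195 in the exact test. Hcrt, the gene of the arousal peptide hypocretin, had 12 counts in hypothalamus against 0 in Tel, at least 2.25-fold higher with 3 counts as the floor over all Tel libraries (exact permutation p = 0.0156). After thinning, hcrt had p = 0.125 and rx3, a homeobox factor of the hypothalamus, had p = 0.148 in the exact permutation test. The complexin gene cplx3a was lower in hypothalamus, with 1 count in hypothalamus against 25 counts in Tel, a ratio of Tel to hypothalamus of 44.4 with a 95% counting interval of 7.27 to 1820 (exact permutation p = 0.00391).

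The regions were also compared within each sex, in one fit of both sexes. Females gave 953 called genes (11.5% of those tested), 557 higher and 396 lower, and males gave 1043 (12.6%), 638 higher and 405 lower. Of these 674 were called in both sexes, all in the same direction. The sign in males matched for 943 of the 953 genes called in females, and the sign in females matched for 1021 of the 1043 called in males. No gene had an interaction of region with sex at an adjusted p of 0.05 in edgeR (0%), with 286 genes at an unadjusted p of 0.05 or less, and limma-voom gave 0 as well, with 333. The smallest p-values were those of leo1, zdbf2 and stard8, with adjusted p = 0.890 each. Their log2 changes were 1.1 in females and 2.12 in males for leo1, -0.86 in females and 1.77 in males for zdbf2, and -0.55 in females and 2.35 in males for stard8. Oxt had log2 changes of 4.55 in females and 5.14 in males, plp1b 3.83 and 3.55, eomesa -5.23 and -4.92, and cyp19a1b -0.74 and -0.64.

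The pools were also grouped by the letter of their codes, while the digit after the letter was not tested. An interaction of region with letter was found for 2 genes in edgeR (0.0242%), against 388 at an unadjusted p of 0.05 or less, and limma-voom gave 0 with 429. Gapdh had log2 changes of -0.11, 2.09 and 6.61 in letters A, B and C (adjusted p = 0.000777). Its level was 248 CPM in the male C2 hypothalamus library and 59.2 CPM in the male A1 Tel library, and without the male C2 pool its adjusted p was 0.898. Its call between the regions was lost without the same pool, with a log2 change of 0.87 (adjusted p = 0.106). The second gene was zgc:122979 (0.01, 1.03 and -0.38, adjusted p = 0.0336). Galn came next with 2.80, 2.28 and 0.25 (adjusted p = 0.0755). It passed the threshold with the pairs thinned (adjusted p = 0.0457) and without the male C2 pool (adjusted p = 0.0247).

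Fish of the cyp19a1b mutant line, which had no part in the wild-type comparison, gave the same comparison in 9 further pools. In a joint fit of 42 libraries, 839 of 8219 genes differed between the regions of mutants (10.2%), 540 higher and 299 lower. Of 1274 genes called in wild-type fish and tested in this fit, 1227 had the same sign in mutants and 668 were called in the same direction, and none was called in the opposite one. An interaction of region with genotype was found for 0 genes in edgeR (0%), with 321 at an unadjusted p of 0.05 or less, and for 0 in limma-voom, with 411. In mutants the log2 change was 3.41 for oxt, 3.50 for plp1b, -4.80 for eomesa, -2.01 for npy and -0.45 for cyp19a1b. In the same fit, dkk3b, which encodes a secreted protein of the Dickkopf family, had a log2 change of 0.44 in mutants and -1.70 in wild-type fish (interaction adjusted p = 0.145). Fabp7b had 0.39 in mutants and -2.55 in wild-type fish (interaction adjusted p = 0.145). Acsl1a, which activates long-chain fatty acids, had -0.20 in mutants and -1.03 in wild-type fish (interaction adjusted p = 0.245). None of these differences passed the threshold.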

How the data were processed

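Total RNA of the dissected regions, pooled from 3 fish per library, was made into 3′ BRB-seq libraries, in which each cDNA carries a sample barcode and a UMI. The deposited table holds the authors' counts of UMIs per gene, not normalized, for 15418 genes and 63 libraries, mapped to danRer11 with BWA 0.7.4.4 according to the submitters' processing notes, with reads of several positions excluded by the authors. Near-identical gene copies may therefore be undercounted, and fold changes of 3′ tags say nothing of isoforms. Of the genes, 372 had no count in the 24 libraries used.

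Counts were analysed with edgeR 4.0.16 (R 4.3.3). Genes passed filterByExpr with a minimum count of 5 over the groups of region and sex, totals were scaled by TMM, and the quasi-likelihood test was fitted with terms for pool and region. Calls needed both a 1.5-fold difference and a Benjamini-Hochberg adjusted p up to 0.05, while interactions needed the adjusted p only. CPM are on TMM-scaled totals, and those of the OB come from a separate scaling of all wild-type libraries. Standard errors were computed from the log2 change and its F statistic. Libraries of the same pool deviated together from their region and sex means, with correlations of 0.118 to 0.307 in 12 of 12 pools, and the pairing itself comes from the shared sex and code in the labels. In 8 pools the hypothalamus library correlated more with its own Tel partner than with any other Tel library of that sex. Genes under the filter were compared on log2(CPM + 1) with a pseudocount of 1. Counting intervals cover counting error only. All sequences were left out, since no reference sequence was used here.

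The gene lists and the members of the comparison were chosen with earlier results of these data known, and 10 families were added after the values had been seen. Genes were named when they were among the 12 largest changes or the 6 highest levels in each direction (at least 50 CPM in the higher region, one direction in all 12 pools), among the 3 lowest p of an interaction, or called members of a list. Cyp19a1b, cyp19a1a, th, th2, pcna, comta, comtb and mao were named in any case, and some list members that were not called were named after their values were seen. Some genes that enter the counts are not reported here. Alternatives were fits without the pool, DESeq2 1.42.0, limma-voom (limma 3.58.1), other scalings, filters and thresholds, thinned counts, and fits without single pools or with single letters. The code was tested on simulated data first.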

Additional observations from a re-analysis of the deposited data

Results flagged for a closer look

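In 33 of 252 groups of 6 libraries (13.1%) the highest or lowest library lay far from the other 5. The rule gives about 1 in 20 by chance only for normally distributed values, so that rate is no measure for these CPM. The genes and list sums looked at were those named by size, level or interaction, and many such groups held low counts in which a single count makes the gap.

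In Tel, rln3a reached 2.93 CPM in female C1 and 1.88 CPM in male C2, sox14 5.16 CPM in female B1, olfm2b 2.88 CPM in female A2 and calb2b 10.4 CPM in male B1. In the shallow male B2 Tel library aldoca was at 40.6 CPM, pmchl at 20.3 CPM and acsl1a at 81.2 CPM, the last of them the lowest of its group. Th2 was at 5.16 CPM in Tel of female B1 and at 6.95 CPM in Tel of male B1. Zdbf2 was at 25.6 CPM in Tel of female A1, where rai14 was lowest at 76.9 CPM, and mao was at 89.1 CPM in Tel of female B2. Fezf2 was highest in both regions of female B2, at 37.7 CPM in hypothalamus and 279 CPM in Tel.

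Among abundant genes, epd reached 23650.0 CPM in Tel of female C2, more than any other female Tel library, and cyp19a1b was lowest at 1004 CPM in Tel of female C1. In hypothalamus cd59 was at 4505 CPM and rai14 at 32.9 CPM in female C1, galn at 251 CPM in female A2, and si:ch211-5k11.8 at 7761 CPM in male C2. The male A1 hypothalamus library held the highest nrgna of its group (517 CPM) and the highest cirbpa (3216 CPM). Its pituitary markers summed to 83.3 CPM, of which pomca gave 53.0 CPM, and its vessel markers to 517 CPM.

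The male C2 hypothalamus library stood apart for gapdh (248 CPM), dkk3b (28.3 CPM) and the muscle list (735 CPM). Of the Tel libraries, male A1 stood apart for gapdh (59.2 CPM), the muscle list (365 CPM) and the meningeal list (13240.0 CPM). The keratin krt5 gave 8072 CPM of that meningeal sum. The meningeal list was also high in Tel of female C2, at 2498 CPM, and the photoreceptor list in Tel of male A2, at 1448 CPM.

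The change between the regions differed between pool letters for gapdh (adjusted p = 0.000777) and for zgc:122979 (adjusted p = 0.0336) in edgeR.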

How the results depend on the processing

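The count of 1289 called genes was within 1.5 times under most alternatives, from 974 with letter C alone to 1457 with no filter, and was 1047 with a minimum count of 10. DESeq2 called 1177 and limma-voom 1255. In a fit without the pool as a block it was 1187, of which 1147 were shared. Leaving out 1 pool gave 1218 to 1307 calls for the regions, 796 to 908 in females, 890 to 1047 in males and 759 to 860 in mutants. The count moved to 108 of 772 tested genes with at least 10 counts in every library, 46.3% of them higher (63.6% in the full set), to 2055 with no fold threshold, 55.2% of them higher, to 676 at 2-fold, and to 741 with letter A alone and 715 with letter B alone. With letter C alone 55.6% of 974 calls were higher. Some of these fits held fewer genes or pools, whose part in the counts was not tested. Without the block, 752 genes were called in females, 833 in males and 692 in mutants.

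The interaction of region with letter gave 0 genes without the pool block, 0 with a minimum count of 10, 0 in limma-voom, 2 with the pairs thinned (galn and zgc:122979), 1 without the shallow male B2 pool and 11 without male C2. The cause was not tested. Interactions with sex and with genotype gave 0 in every fit run. Sparse genes at p of 0.05 or less in the exact permutation test were 69 with a pseudocount of 5 and 42 after thinning, against 67.

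Of 7001 values recomputed for 252 named genes under 29 settings, 11 reversed. With letter A alone gapdh was at -0.069 and pvalb4 at -0.11, with letter B alone gnat1 at 0.19, gngt1 at 0.65 and mhc2dab at 0.60, and with letter C alone hmx3a at -0.22. Without the 5 pools of high exorh, arr3a was at 1.2, exorh at 0.35, gnat1 at 0.42, gngt1 at 0.98 and saga at 0.56. These pools were picked by exorh in Tel, so the shift of these photoreceptor values followed in large part from the choice. Of 246 called genes 202 kept their call outside the single-letter fits and the 2-fold threshold, and 30 lost it without 1 pool. The fits without the exorh pools, without male C2, without male A1 and B2 together, the thinned sparse genes and the limma-voom interactions were chosen after seeing the data. Genes under about 20 CPM can be missed in the shallow Tel library of male B2.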
